A study of Mus musculus with 30 samples.

Results

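The 10 genes described here encode ligands of the activin and bone morphogenetic protein (BMP) branches of the TGF-β superfamily and 3 secreted proteins of the follistatin family. They were taken by name from the 43629 genes counted in each library. The ligand genes are Inhba, Inhbb, Bmp2, Bmp4, Bmp6, Bmp10 and Mstn, and the follistatin family genes are Fst, Fstl1 and Fstl3. All 10 had an identifier in the count files.

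Hearts came from C57BL/6J mice of wild type genotype, and their RNA was sequenced 2, 4 or 7 days after surgery. In the myocardial infarction (MI) groups the chest was opened under isoflurane, the pericardium removed and a coronary artery ligated, and sham mice had this surgery without the ligation. The 30 libraries form 6 groups of 5, MI and sham at day 2, MI and sham at day 4, and MI and sham at day 7. The labels give neither age nor sex, do not name the region of the heart sampled, and do not say whether replicates came from separate animals, so that the p-values cover the spread between samples, which may be technical. Sham hearts share the thoracotomy, and no heart without surgery was analysed here.

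Activins are dimers of inhibin β subunits. Inhba encodes the βA subunit of activin A and Inhbb the βB subunit of activin B. Activins and myostatin bind type II receptors and signal through SMAD2 and SMAD3, while BMPs signal through SMAD1, SMAD5 and SMAD9 and switch on the Id genes. Follistatin and its relative FSTL3 bind activins and myostatin outside the cell and block them, whereas FSTL1 is a secreted glycoprotein whose name reflects a shared domain. In the heart BMP10 is known as an atrial ligand, and BMP2 and BMP4 are known for their part in the formation of the heart.

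Library totals ran from 7841930 to 14070017 counts, and values are given as CPM, counts divided by the total of their library and put on a common scale. A gene was called when its edgeR quasi-likelihood p, adjusted over all genes tested in that comparison by the Benjamini-Hochberg method, was under 0.05. As markers of the labelled tissue, the cardiomyocyte genes Myh6, Tnnt2, Actc1, Pln and Ryr2 together held 29788 to 34129.8 CPM after MI and 40154 to 46378 CPM after sham surgery at day 2. Some libraries stood apart. Transcripts of lung epithelium, read as the sum of Sftpc and Scgb1a1, reached at least 50 CPM in 6 libraries (sham day 4 replicates 2 and 3, sham day 7 replicates 1, 2 and 3, and MI day 7 replicate 2) and at most 24.0 CPM in the others. MI day 7 replicate 4 held 1849 CPM of 7 fast skeletal muscle genes. The descriptions of the day 2 libraries carry another identifier than those of days 4 and 7. The labels do not say what it stands for, and for any difference between day 2 and a later day it cannot be told apart from the day.

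Of the 10 genes, 9 passed the filter on low counts at each day and Mstn did not at any. At day 2, 5 genes were higher in MI than in sham hearts (Inhba, Inhbb, Bmp2, Fstl1 and Fstl3) and 1 was lower (Bmp6), where 46.3% of the 14524 genes tested were called, 24.1% as higher and 22.2% as lower. At day 4 Bmp4 joined these, giving 6 higher and 1 lower, against a background of 52.7% called, 27.5% as higher and 25.2% as lower. At day 7, where 55.0% of all genes tested were called, 28.4% as higher and 26.6% as lower, 6 were again higher and 1 lower, with Fst among the higher genes and Bmp2 no longer called. With calls this frequent among all genes, the number of calls among the 10 says little, and their size and course carry the description. The median log2 fold change of the 9 tested genes was 0.63, 1.24 and 1.08 at days 2, 4 and 7, while that of all genes tested was -0.01, 0.01 and 0.01. The scaling between libraries (TMM factors) holds the middle of all genes near 0. The median of all genes is therefore no measure of how widely their fold changes spread. The CPM of the 5 MI libraries all lay above those of the 5 sham libraries for 5 genes at day 2, 6 at day 4 and 6 at day 7, and the groups did not overlap, in either direction, for 30.6, 39.3 and 41.5% of all genes tested.

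**Figure D1:**
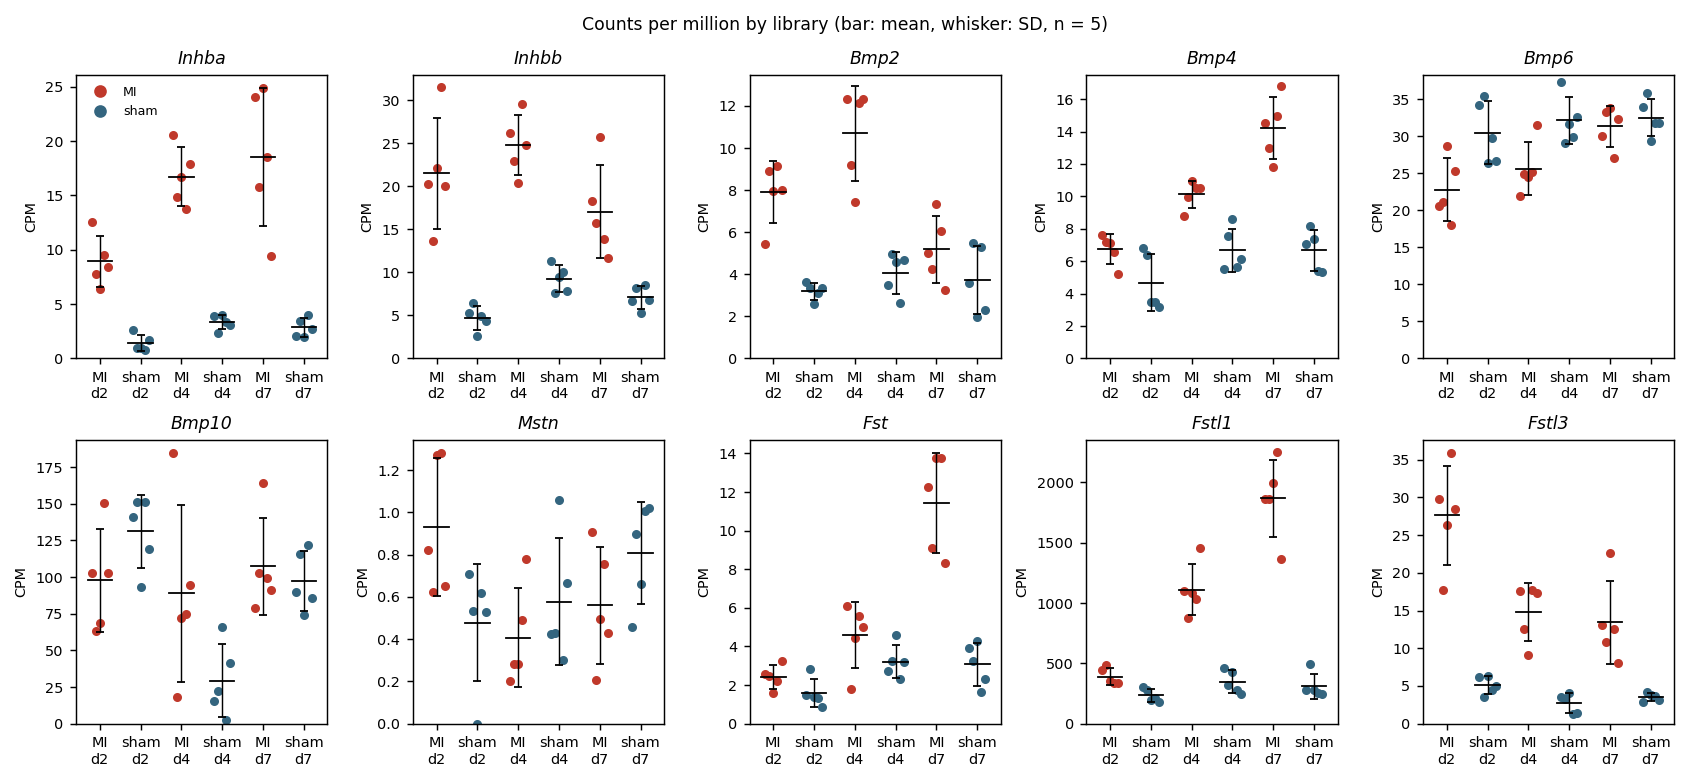
CPM of the 10 genes in each library (points), with the mean (bar) and SD (whisker) of the 5 libraries of a group; MI (red) stands left of sham (blue) at days 2, 4 and 7 (d2, d4, d7). The Inhba, Inhbb and Fstl3 points of MI libraries lie above all sham points of the same day at each of the 3 days, while Bmp10 scatters widely at day 4 and Mstn is at most 1.28 CPM.

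Activin βA transcript was several fold more abundant in infarcted hearts at every day sampled. Inhba (ENSMUSG00000041324, chromosome 13, 16011851 to 16031621, plus strand in GRCm38) measured 12.6, 7.79, 6.37, 9.52 and 8.38 CPM in MI libraries, against 2.58, 0.989, 0.940, 0.772 and 1.67 CPM in sham libraries at day 2. At day 4 it measured 20.6, 14.9, 16.7, 13.7 and 17.9 CPM in MI libraries, against 3.92, 2.36, 4.004, 3.32 and 3.11 CPM in sham libraries. At day 7 the values were 24.1, 15.8, 24.9, 18.5 and 9.38 CPM in MI libraries, against 2.11, 3.48, 1.98, 4.02 and 2.68 CPM in sham libraries. The lowest MI library stood above the highest sham library at each day. The log2 fold changes, MI over sham, were 2.60 ± 0.27 SE (edgeR adjusted p = 4.16e-06) at day 2, 2.15 ± 0.16 SE (edgeR adjusted p = 1.31e-07) at day 4 and 2.52 ± 0.28 SE (edgeR adjusted p = 1.3e-05) at day 7. These are 6.08-fold, 4.42-fold and 5.73-fold differences. In the order of levels MI day 7 and MI day 4 overlapped, MI day 2 came next, overlapping MI day 7 but not MI day 4, and the 3 sham groups came last.

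In RNA of bulk heart tissue a change in the number of cells of a type and a change in RNA per cell cannot be told apart. Beside the activin genes, the summed CPM of 5 macrophage genes (Adgre1, Cd68, Csf1r, Fcgr1 and Mertk) was 176 to 276 CPM after MI and 95.7 to 171 CPM after sham surgery at day 2, 418 to 539.8 CPM after MI and 140.4 to 226 CPM after sham surgery at day 4 and 279.5 to 559.9 CPM after MI and 112 to 179 CPM after sham surgery at day 7. Of these genes 3, 5 and 5 were called higher at days 2, 4 and 7, and none was at 0 in any library. The 4 neutrophil genes S100a8, S100a9, Csf3r and Cxcr2 summed to 172 to 628 CPM after MI and 7.91 to 15.8 CPM after sham surgery at day 2, 31.2 to 209.8 CPM after MI and 4.44 to 9.99 CPM after sham surgery at day 4 and 15.3 to 251 CPM after MI and 1.91 to 7.96 CPM after sham surgery at day 7. All 4 were called higher at days 2 and 4, and at day 7 all 3 that could be tested, while Cxcr2 was at 0 in 2 sham day 7 libraries. The part of these cells in the activin result was not tested.

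Inhbb, the activin βB gene, was also higher at each day, and its difference from sham was largest at day 2 among the 3 days. Inhbb (ENSMUSG00000037035, chromosome 1, 119415465 to 119422248, minus strand) measured 20.3, 13.6, 22.2, 31.6 and 20.02 CPM in MI libraries, against 5.24, 6.39, 2.56, 4.94 and 4.32 CPM in sham libraries at day 2. The day 4 values were 26.2, 22.9, 20.4, 29.6 and 24.8 CPM in MI libraries, against 11.3, 7.63, 9.42, 10.1 and 7.88 CPM in sham libraries. At day 7 they were 18.3, 15.8, 25.7, 13.9 and 11.6 CPM in MI libraries, against 6.69, 8.19, 5.28, 8.54 and 6.76 CPM in sham libraries. Again no MI library overlapped the sham libraries of its day. The means were 21.5, 24.8 and 17.1 CPM after MI at days 2, 4 and 7, and 4.69, 9.26 and 7.09 CPM after sham surgery. Thus the MI mean was highest at day 4, and the sham mean was lowest at day 2. The log2 fold change was 2.11 ± 0.24 SE (edgeR adjusted p = 1.38e-05) at day 2, 1.24 ± 0.13 SE (edgeR adjusted p = 3.02e-06) at day 4 and 1.08 ± 0.21 SE (edgeR adjusted p = 0.000677) at day 7, or 4.32-fold, 2.36-fold and 2.11-fold.

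The 2 subunit genes can be compared on a scale that divides by exonic length, TPM, transcripts on a common total. On it Inhba and Inhbb together had a median of 14.4 TPM in MI and 3.36 TPM in sham libraries at day 2, 20.8 TPM in MI and 7.28 TPM in sham libraries at day 4, and 15.4 TPM in MI and 5.09 TPM in sham libraries at day 7. Inhbb was the larger of the 2 in every library on this scale, which takes the length of all annotated exons, 6390 bases for Inhba and 4255 for Inhbb. The transcript forms present were not examined. In CPM the order differed after MI at day 7, with means of 18.5 for Inhba and 17.1 for Inhbb. The Inhba share of the summed TPM had a median of 21.8% in MI and 19.6% in sham libraries at day 2, and the groups overlapped. At day 4 it was 32.4% in MI libraries (range 23.6 to 35.2%) and 18.7% in sham libraries (17.1 to 22.1%). At day 7 the medians were 40.0% in MI (34.9 to 47.0%) and 20.9% in sham libraries (17.3 to 23.9%). At days 4 and 7 each MI library had a larger βA share than each sham library. These shares are given without a test.

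Fstl3, which encodes a secreted binder of activins and myostatin, was the third gene more than 2-fold higher at all 3 days. Fstl3 (ENSMUSG00000020325, chromosome 10, 79777272 to 79782630, plus strand) measured 29.7, 17.8, 26.3, 35.9 and 28.4 CPM in MI libraries, against 6.22, 3.58, 6.32, 4.48 and 5.02 CPM in sham libraries at day 2. It measured 17.5, 12.6, 9.13, 17.7 and 17.3 CPM in MI libraries, against 3.60, 3.22, 4.12, 1.31 and 1.44 CPM in sham libraries at day 4. At day 7 the values were 13.1, 10.8, 22.6, 12.6 and 7.98 CPM in MI libraries, against 2.93, 4.26, 3.74, 3.64 and 3.19 CPM in sham libraries. The mean MI level was highest at day 2, where the libraries did not overlap those of MI day 4 but did overlap those of MI day 7, and the sham levels were at most 6.32 CPM. Log2 fold changes were 2.35 ± 0.20 SE (edgeR adjusted p = 1.06e-06) at day 2, 2.27 ± 0.28 SE (edgeR adjusted p = 1.81e-05) at day 4 and 1.73 ± 0.25 SE (edgeR adjusted p = 7.39e-05) at day 7. The corresponding folds are 5.09, 4.82 and 3.32. The minus-strand gene Prss57 shares 1157 exonic bases with Fstl3, but held at most 5 counts in a library.

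The proximal promoters of Inhba, Inhbb and Fstl3 are printed because each of these genes was called more than 2-fold higher in MI hearts at all 3 days. They are RefSeq windows of 300 bases on GRCm38.p6, from 250 bases before to 50 bases after the transcription start, written 5′ to 3′ on the strand of the gene, with capitals marking a match to TATAAA or its reverse complement. Promoters were on file for 8 of the 10 genes, Bmp2 and Fst being without one.
Inhba, chr13:16011601-16011900, plus strand: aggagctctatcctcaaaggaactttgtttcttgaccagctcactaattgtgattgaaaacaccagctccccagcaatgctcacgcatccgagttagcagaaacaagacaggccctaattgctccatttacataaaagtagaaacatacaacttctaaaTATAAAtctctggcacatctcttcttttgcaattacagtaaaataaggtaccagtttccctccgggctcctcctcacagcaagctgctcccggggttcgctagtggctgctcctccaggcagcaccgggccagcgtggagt
Inhbb, chr1:119422199-119422498, minus strand: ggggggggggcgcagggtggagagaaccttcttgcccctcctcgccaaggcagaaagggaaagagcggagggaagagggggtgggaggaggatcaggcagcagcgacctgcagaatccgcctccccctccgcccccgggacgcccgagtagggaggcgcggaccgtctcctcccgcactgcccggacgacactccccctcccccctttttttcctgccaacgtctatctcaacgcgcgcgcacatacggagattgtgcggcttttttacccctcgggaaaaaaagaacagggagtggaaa
Fstl3, chr10:79777024-79777323, plus strand: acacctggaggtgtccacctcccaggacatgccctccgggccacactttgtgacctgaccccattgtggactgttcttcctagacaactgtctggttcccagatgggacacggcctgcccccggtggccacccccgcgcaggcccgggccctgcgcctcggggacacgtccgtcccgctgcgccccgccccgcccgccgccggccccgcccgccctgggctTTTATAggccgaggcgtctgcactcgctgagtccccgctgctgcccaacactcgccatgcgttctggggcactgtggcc
A set of 6 motifs was searched on both strands: the AP-1 motif TGANTCA, the cyclic AMP response element TGACGTCA, the GC-rich SMAD motif GGCGCC, the SMAD palindrome GTCTAGAC, the TEAD motif GGAATG and TATAAA. The windows share no match other than TATAAA, which begins at position -91 in Inhba and, as the reverse complement, at -29 in Fstl3, counted from the transcription start. The Inhbb window held none of the letters searched. Of all 32851 promoters of this length on file, 13.6% hold TATAAA, 7.81% the AP-1 motif, 1.79% the cyclic AMP element, 11.9% GGCGCC, 14.7% the TEAD motif and 0.213% GTCTAGAC. Elsewhere among the 8 promoters, Mstn alone had matches, for AP-1 at -170 and for TATAAA at -29. A match is only a run of letters in the window.

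Fst, the gene of follistatin itself, was called at day 7 only. Fst (ENSMUSG00000021765, chromosome 13, 114452290 to 114458951, minus strand) measured 2.57, 2.49, 1.59, 2.203 and 3.26 CPM in MI libraries, against 1.51, 2.81, 1.37, 1.31 and 0.881 CPM in sham libraries at day 2. At day 4 the values were 6.12, 1.79, 4.42, 5.59 and 5.03 CPM in MI libraries, against 2.75, 3.22, 4.59, 2.31 and 3.22 CPM in sham libraries. The groups overlapped at both days. At day 7 they no longer did, with 12.3, 9.13, 13.8, 13.8 and 8.30 CPM in MI libraries, against 3.94, 3.25, 4.29, 1.63 and 2.30 CPM in sham libraries. The log2 fold change was 0.52 ± 0.28 SE (edgeR adjusted p = 0.143) at day 2, 0.34 ± 0.27 SE (edgeR adjusted p = 0.318) at day 4 and 1.69 ± 0.24 SE (edgeR adjusted p = 7.03e-05) at day 7, the last a 3.22-fold difference. The earlier values were called when single libraries were left out: without sham day 2 replicate 2 the day 2 value was 0.83 (edgeR adjusted p = 0.0177), and without MI day 4 replicate 2 the day 4 value was 0.54 (edgeR adjusted p = 0.0382). Without the 4 day 7 libraries with lung transcripts the day 7 value was larger, 2.36 (edgeR adjusted p = 0.00116). That fit kept only sham replicates 4 and 5, the sham libraries lowest in Fst at that day (1.63 and 2.30 CPM).

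The balance of the 2 activin binders was read per length. On this scale, Fst made up a median of 4.41% of the summed Fst and Fstl3 TPM in MI and 11.5% in sham libraries at day 2, and the groups did not overlap. The shares were 14.4% in MI and 37.3% in sham libraries at day 4, again without overlap. At day 7 they were 33.3% in MI and 28.9% in sham libraries, and overlapped. The ratio of both binders to both activin subunits had medians of 1.79 in MI and 1.76 in sham libraries at day 2, 0.907 in MI and 0.633 in sham libraries at day 4, and 1.21 in MI and 0.993 in sham libraries at day 7. This ratio overlapped between MI and sham at every day. Transcript ratios carry no test here and do not measure protein.

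**Figure D2:**
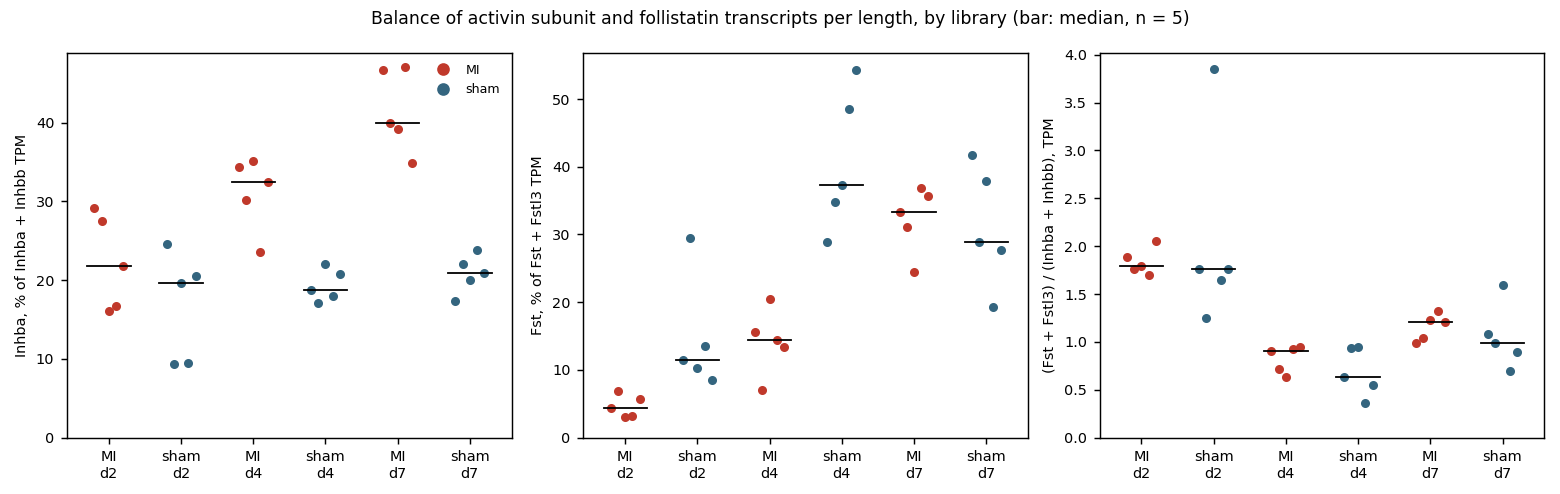
Per-length transcript balance in each library (points; bar, median of 5), with MI left of sham at days 2, 4 and 7 (d2, d4, d7): Inhba as a percentage of Inhba and Inhbb TPM, Fst as a percentage of Fst and Fstl3 TPM, and the ratio of Fst and Fstl3 to Inhba and Inhbb TPM. The Inhba share is higher in each MI library than in each sham library at days 4 and 7, with medians of 40.0% in MI and 20.9% in sham libraries at day 7, while the ratio on the right overlaps between MI and sham at each day.

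Fstl1 was by far the most abundant of the 10 transcripts and its fold change in MI hearts was larger at each later day. Fstl1 (ENSMUSG00000022816, chromosome 16, 37776873 to 37836514, plus strand) measured 448, 484, 352, 334 and 334 CPM in MI libraries, against 307, 281, 199.5, 217 and 177 CPM in sham libraries at day 2. It measured 1099, 878, 1086, 1032 and 1453 CPM in MI libraries, against 464, 323, 429, 279.8 and 248 CPM in sham libraries at day 4. At day 7 it reached 1859, 1863, 1998, 2249.8 and 1369 CPM in MI libraries, against 279, 497, 279, 253 and 249.7 CPM in sham libraries. MI and sham libraries did not overlap at any day, and sham day 7 replicate 2 was far above the other sham libraries of that day. Log2 fold changes were 0.63 ± 0.14 SE (edgeR adjusted p = 0.00219) at day 2, 1.496 ± 0.17 SE (edgeR adjusted p = 5.14e-06) at day 4 and 2.40 ± 0.19 SE (edgeR adjusted p = 1.49e-06) at day 7, which are 1.55-fold, 2.82-fold and 5.27-fold. On the TPM scale Fstl1 ranked first of the 10 in all 6 groups, with 903 ± 198 TPM in MI and 155 ± 50.5 TPM in sham libraries at day 7 (SD, n = 5 each).

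Transcripts of 5 fibroblast genes are given beside these results. Pdgfra, Tcf21, Dpt, Col1a1 and Postn together held 612 to 1022 CPM after MI and 455 to 858 CPM after sham surgery at day 2, 2721 to 5305 CPM after MI and 824 to 1741 CPM after sham surgery at day 4 and 4065 to 8432 CPM after MI and 726 to 1499 CPM after sham surgery at day 7. Of these 5 genes, 1 was higher (Postn, 1.21 on the log2 scale) and 1 lower (Dpt, -0.41) at day 2. At day 4, 3 were higher (Tcf21, Col1a1 and Postn), while Dpt (0.04) and Pdgfra (0.07) were not called. All 5 were higher at day 7, and none was at 0 in any library. Their part in the Fstl1, Bmp4 and Fst results was not tested.

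No BMP gene had a called change of its MI difference between days in edgeR with TMM factors and all 30 libraries, and each is described day by day. Bmp2 was higher at the 2 earlier days. Bmp2 (ENSMUSG00000027358, chromosome 2, 133552159 to 133562885, plus strand) measured 5.45, 8.89, 7.96, 9.17 and 8.01 CPM in MI libraries, against 3.64, 3.35, 2.56, 3.09 and 3.35 CPM in sham libraries at day 2. At day 4 the values were 12.3, 9.21, 7.44, 12.2 and 12.3 CPM in MI libraries, against 3.50, 4.94, 4.59, 2.61 and 4.66 CPM in sham libraries. The groups did not overlap at either day, but did at day 7, with 5.001, 4.25, 7.34, 6.05 and 3.24 CPM in MI libraries, against 3.57, 5.49, 1.98, 5.28 and 2.30 CPM in sham libraries. The log2 fold change was 1.22 ± 0.17 SE (edgeR adjusted p = 3.4e-05) at day 2, 1.22 ± 0.19 SE (edgeR adjusted p = 9.61e-05) at day 4 and 0.30 ± 0.30 SE (edgeR adjusted p = 0.42) at day 7. The first 2 are both 2.33-fold.

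Bmp4 was called higher at days 4 and 7. Bmp4 (ENSMUSG00000021835, chromosome 14, 46383520 to 46390669, minus strand) measured 7.61, 7.17, 7.11, 6.54 and 5.22 CPM in MI libraries, against 6.84, 6.39, 3.50, 3.48 and 3.17 CPM in sham libraries at day 2, where the groups overlapped. It measured 8.77, 9.97, 10.9, 10.5 and 10.5 CPM in MI libraries, against 5.51, 7.52, 8.60, 5.63 and 6.11 CPM in sham libraries at day 4. At day 7 the values were 14.5, 12.97, 11.8, 14.97 and 16.8 CPM in MI libraries, against 7.05, 8.19, 7.37, 5.40 and 5.36 CPM in sham libraries. Each MI library stood above each sham library at days 4 and 7, and the MI groups did not overlap between days 4 and 7. Log2 fold changes were 0.43 ± 0.21 SE (edgeR adjusted p = 0.0995) at day 2, 0.43 ± 0.14 SE (edgeR adjusted p = 0.0183) at day 4 and 0.89 ± 0.15 SE (edgeR adjusted p = 0.000213) at day 7. The change of this difference between days was not called, at 0.49 ± 0.24 SE (edgeR adjusted p = 0.155) for day 7 minus day 2 and 0.48 ± 0.24 SE (edgeR adjusted p = 0.358) for day 7 minus day 4. The day 2 difference passed the threshold without sham replicate 1 (0.60, edgeR adjusted p = 0.0244) or without sham replicate 2 (0.56, edgeR adjusted p = 0.0421). The gene Gm15217, on the other strand, shares 89 exonic bases with Bmp4 and held at most 4 counts.

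Bmp6, a BMP known for its part in the control of iron through hepcidin in the liver, was the only one of the 10 called lower. Bmp6 (ENSMUSG00000039004, chromosome 13, 38345107 to 38500302, plus strand) measured 20.6, 21.2, 28.7, 18.0 and 25.3 CPM in MI libraries, against 34.3, 35.5, 26.4, 29.7 and 26.7 CPM in sham libraries at day 2. At day 4 the values were 21.9, 24.9, 24.5, 25.2 and 31.6 CPM in MI libraries, against 37.4, 29.1, 31.7, 29.96 and 32.6 CPM in sham libraries. At day 7 they were 30.1, 33.3, 33.9, 27.1 and 32.4 CPM in MI libraries, against 34.0, 35.9, 29.4, 31.8 and 31.8 CPM in sham libraries. The groups overlapped at all 3 days. The log2 fold change was -0.52 ± 0.13 SE (edgeR adjusted p = 0.00378) at day 2, -0.50 ± 0.10 SE (edgeR adjusted p = 0.000784) at day 4 and -0.25 ± 0.09 SE (edgeR adjusted p = 0.0324) at day 7. These values include the TMM factors, which the CPM do not. Mean CPM at day 7 were 31.4 after MI and 32.5 after sham surgery, a ratio of 0.963, while the edgeR fold was 0.842. Without the libraries with lung transcripts (sham replicates 1, 2 and 3 and MI replicate 2) the day 7 value was -0.29 ± 0.15 SE (edgeR adjusted p = 0.156). The value was not nearer 0 and its SE was larger, but the call was lost. No filter on low counts (-0.26, edgeR adjusted p = 0.0698) or all 30 libraries in 1 fit (-0.24, edgeR adjusted p = 0.0603) also left the day 7 value uncalled. The call was also lost without MI replicate 1 (-0.24, edgeR adjusted p = 0.053), MI replicate 4 (-0.19, edgeR adjusted p = 0.086), sham replicate 1 (-0.24, edgeR adjusted p = 0.0713), sham replicate 2 (-0.22, edgeR adjusted p = 0.0811), sham replicate 4 (-0.26, edgeR adjusted p = 0.0514) or sham replicate 5 (-0.25, edgeR adjusted p = 0.0541).

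Bmp6 shares 224 exonic bases with Txndc5 on the minus strand, a thioredoxin-domain gene of the endoplasmic reticulum that held up to 3440 counts in a library. The strand setting of the counting is not given in the sources used here, so that reads of these bases cannot be told apart. Txndc5 averaged 131 ± 16.1 CPM after MI against 89.1 ± 14.9 CPM after sham surgery at day 2 (SD, n = 5 each), and its log2 fold changes were 0.47, 0.93 and 1.29 at days 2, 4 and 7 (edgeR adjusted p = 0.00162, 8.65e-06 and 4.26e-06). Its direction was opposite to that of Bmp6.

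Bmp10 did not pass the threshold at any day in edgeR and scattered widely. Bmp10 (ENSMUSG00000030046, chromosome 6, 87428994 to 87437677, plus strand) measured 103, 63.5, 68.8, 151 and 103 CPM in MI libraries, against 141, 151, 93.2, 151 and 119 CPM in sham libraries at day 2. At day 4 it measured 184, 18.4, 72.2, 74.5 and 94.5 CPM in MI libraries, against 15.4, 22.03, 66.2, 2.21 and 41.3 CPM in sham libraries. The day 7 values were 78.7, 102, 164, 99.5 and 91.1 CPM in MI libraries, against 89.5, 116, 74.2, 122 and 85.4 CPM in sham libraries. MI and sham overlapped at each day, and the sham libraries of day 4 lay below those of days 2 and 7. The log2 fold change was -0.51 ± 0.23 SE (edgeR adjusted p = 0.0908) at day 2, 1.44 ± 0.78 SE (edgeR adjusted p = 0.157) at day 4 and -0.05 ± 0.19 SE (edgeR adjusted p = 0.827) at day 7. DESeq2 called the day 2 value lower (-0.51, DESeq2 adjusted p = 0.0343). Without MI day 2 replicate 4 the day 2 value was called in edgeR (-0.74, edgeR adjusted p = 0.00517), and in a fit of all 30 libraries the day 4 value was (1.44, edgeR adjusted p = 0.0189).

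Since Bmp10 is an atrial gene, 5 atrial genes (Sln, Myl4, Myl7, Dkk3 and Mybphl) are given beside it. Their sum was 1127 to 1895 CPM after MI and 1278 to 2054 CPM after sham surgery at day 2, 225 to 1405 CPM after MI and 688 to 1724 CPM after sham surgery at day 4 and 1184 to 1951 CPM after MI and 1151 to 2454 CPM after sham surgery at day 7. None was at 0 in any library. Of the atrial genes, Myl7 was called lower in MI hearts at day 2 (-0.67 on the log2 scale, edgeR adjusted p = 0.00855), and none was called at day 4. Myl7 (-0.79, edgeR adjusted p = 0.00823) and Mybphl (-0.88, edgeR adjusted p = 0.000176) were called lower at day 7. MI day 4 replicate 2, the MI library lowest in Bmp10 at that day, also had the lowest atrial sum of all 30, 225 CPM. Sham day 4 replicate 4, with 2.21 CPM of Bmp10, had an atrial sum of 889.5 CPM. The amount of atrial tissue in a sample is not given in the labels, and its part in the Bmp10 values was not tested.

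**Figure D3:**
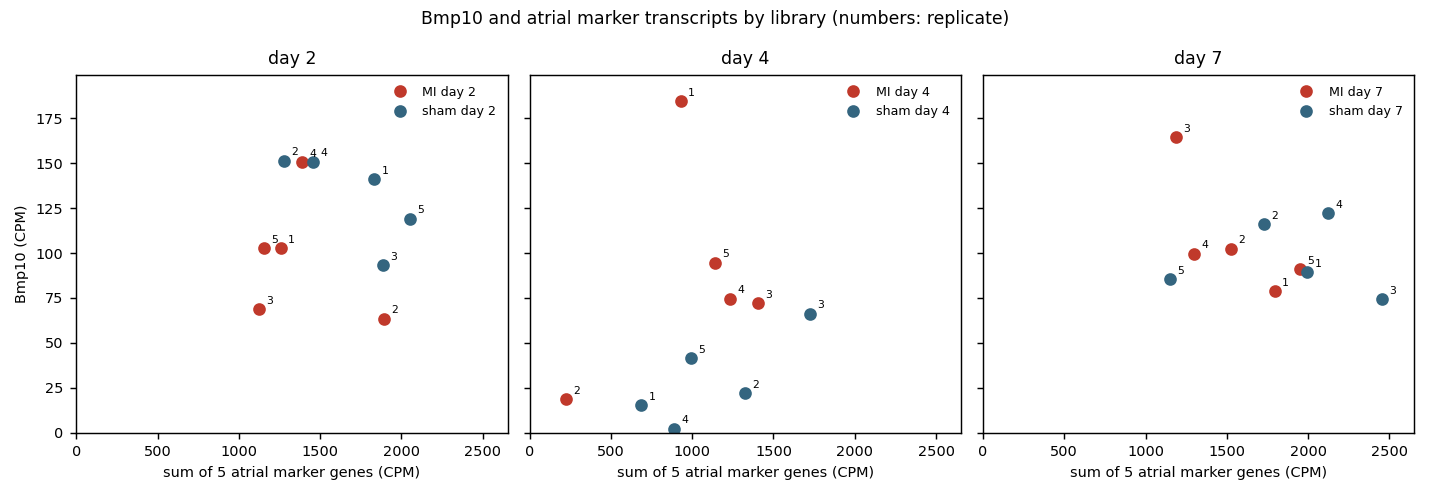
Bmp10 CPM against the summed CPM of 5 atrial marker genes in each library at days 2, 4 and 7, MI in red and sham in blue, with replicate numbers beside the points. MI day 4 replicate 2 lies at the far left with an atrial sum of 225 CPM and 18.4 CPM of Bmp10, while MI day 4 replicate 1 has the highest Bmp10 of the 30 libraries at 184 CPM.

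Mstn, the gene of myostatin, a brake on muscle growth, was close to the limit of detection. Mstn (ENSMUSG00000026100, chromosome 1, 53061640 to 53068079, plus strand) measured 0.823, 0.624, 1.27, 1.28 and 0.652 CPM in MI libraries, against 0.711, 0.532, 0, 0.618 and 0.529 CPM in sham libraries at day 2, with 0 to 18 counts in each of the 30 libraries. The 0 counts of sham day 2 replicate 3 allow up to 3 counts, or 0.256 CPM, for counting error only. At day 4 the CPM were 0.204, 0.282, 0.282, 0.490 and 0.780 in MI and 0.424, 0.430, 1.06, 0.302 and 0.666 in sham libraries, and at day 7 they were 0.909, 0.207, 0.495, 0.757 and 0.431 in MI and 0.458, 0.897, 0.660, 1.005 and 1.020 in sham libraries. The groups overlapped at every day. Without the filter the log2 fold changes were 0.86, -0.60 and -0.71 at days 2, 4 and 7 (edgeR adjusted p = 0.149, 0.435 and 0.309), so that no difference was detectable at this depth. MI day 7 replicate 4, with its fast skeletal muscle transcripts, had 0.757 CPM of Mstn, within the range of its group.

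**Figure D4:**
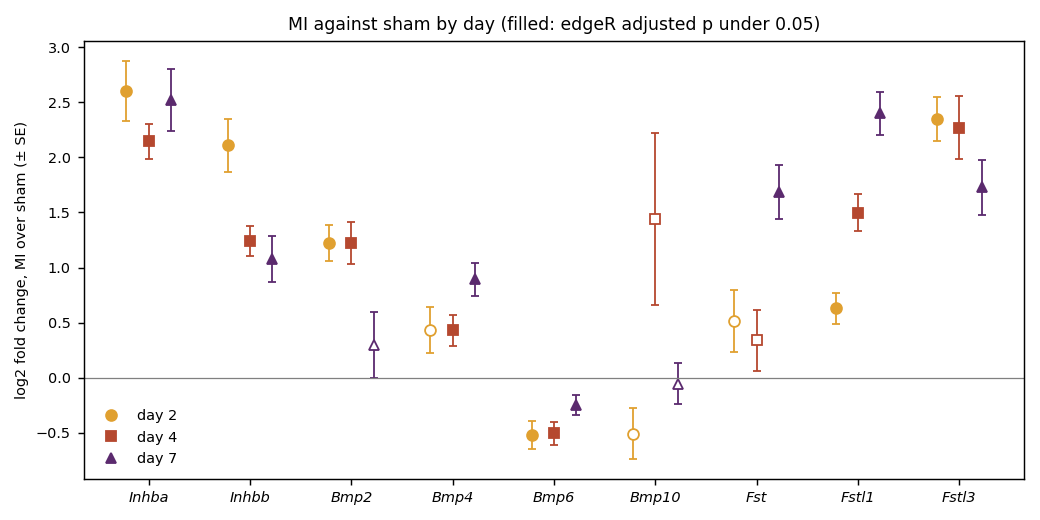
Log2 fold change of MI over sham (± SE) at days 2, 4 and 7 for the 9 genes tested, with filled symbols where the edgeR adjusted p was under 0.05. Inhba and Fstl3 are at 1.73 or above at each day, Fst and Fstl1 have their largest values at day 7 (1.69 and 2.40), and Bmp6 lies below 0 at each day.

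Whether the MI difference itself changed between days was tested as an interaction in 1 fit of all 30 libraries, in which all 10 genes could be tested. From day 2 to day 7, 3 of the 10 were called, where 19.2% of the 15537 genes tested were, 10.1% as higher and 9.11% as lower. The Fstl1 difference grew by 1.80 on the log2 scale (± 0.26 SE, edgeR adjusted p = 1.94e-05), and that of Fst by 1.20 ± 0.41 SE (edgeR adjusted p = 0.0368). The Inhbb difference was smaller at day 7 than at day 2, with a change of -1.003 ± 0.31 SE (edgeR adjusted p = 0.0239). Both sides entered this change: from day 2 to day 7 the mean went from 21.5 to 17.1 CPM after MI, with overlapping libraries. After sham surgery the Inhbb mean went from 4.69 to 7.09 CPM, also with overlapping libraries. Neither side was tested alone. The Bmp2 change of -0.89 ± 0.34 SE (edgeR adjusted p = 0.0599) fell short of the threshold in edgeR with TMM factors, but was called with median-ratio factors (-0.93, edgeR adjusted p = 0.0452) and by DESeq2 (-0.93, DESeq2 adjusted p = 0.0287), and that of Inhba was smaller than its SE. Between days 4 and 2, 1 gene was called, Fstl1 (0.87 ± 0.25 SE, edgeR adjusted p = 0.0416), against 4.80% of all genes tested, 2.51% as higher and 2.29% as lower. Between days 7 and 4 edgeR called none of the 10, against 1.02% of all genes, 0.702% as higher and 0.315% as lower. There 4 genes had an unadjusted p under 0.05: Fst (1.37 ± 0.39 SE, edgeR adjusted p = 0.0777), Fstl1 (0.92 ± 0.25 SE, edgeR adjusted p = 0.0727), Bmp2 (-0.90 ± 0.34 SE, edgeR adjusted p = 0.199) and Bmp10 (-1.48 ± 0.69 SE, edgeR adjusted p = 0.33). DESeq2 called 2 of these, Fst and Fstl1.

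Several of these interactions, with adjusted p near the threshold, lost or gained a call when a single library was left out. The Inhbb difference between days 7 and 2 lost its call without MI day 2 replicate 4 (-0.81, edgeR adjusted p = 0.0552) or sham day 7 replicate 4 (-0.92, edgeR adjusted p = 0.0516). The Inhbb call was also lost without the lung libraries, where the value was not nearer 0 but its SE was larger (-1.13 ± 0.41 SE, edgeR adjusted p = 0.0625). That of Fst did so without any 1 of sham day 2 replicate 2, MI day 2 replicates 3 and 4, sham day 7 replicates 4 and 5, or MI day 7 replicates 1, 3 and 4, with values of 0.88 to 1.16 and edgeR adjusted p of 0.0501 to 0.141. The day 4 minus day 2 call of Fstl1 was lost without any 1 of MI day 2 replicates 1, 3, 4 and 5, sham day 2 replicates 1, 2 and 4, MI day 4 replicates 1, 3 and 5, sham day 4 replicates 2, 4 and 5, or MI day 7 replicate 2, with values of 0.75 to 0.90 and edgeR adjusted p of 0.0501 to 0.104. Another 2 genes gained a call between days 4 and 2: Inhbb without MI day 2 replicate 2 (-1.02, edgeR adjusted p = 0.0272), and Bmp10 without MI day 4 replicate 2 (2.203, edgeR adjusted p = 0.0381) or sham day 4 replicate 3 (2.44, edgeR adjusted p = 0.0295). Between days 7 and 4, Fst gained one without MI day 7 replicate 5 (1.46, edgeR adjusted p = 0.0442), as did Fstl1 (1.01, edgeR adjusted p = 0.0339), which was also called without MI day 4 replicate 5 (1.03), sham day 4 replicate 5 (1.02) or sham day 7 replicate 2 (1.14). Bmp2 was called between days 7 and 2 without MI day 2 replicate 1, MI day 4 replicate 3, MI day 7 replicate 3, sham day 7 replicate 3 or sham day 7 replicate 5, at values of -1.08 to -0.91 and edgeR adjusted p of 0.0231 to 0.0497. The Fstl1 call between days 7 and 2 was kept in each of these fits.

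Per length, the order of the other genes below Fstl1 differed between MI and sham hearts. At day 2 Fstl3 was the third of the 10 in MI with 26.9 ± 7.21 TPM and the fifth in sham libraries with 5.27 ± 1.12 TPM (SD, n = 5 each). Bmp6 measured 13.8 ± 2.28 TPM in MI and 19.9 ± 3.92 TPM in sham libraries at that day. Mstn was last in all 6 groups. At day 7 Fst measured 5.91 ± 1.51 TPM in MI and 1.63 ± 0.535 TPM in sham libraries, and Inhba 6.82 ± 2.28 TPM in MI and 1.099 ± 0.367 TPM in sham libraries. In the MI libraries of day 7, Inhba and Fst differed by less than their SD.

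The wider pathway was read from 6 lists of 66 other genes. Of 21 other BMP, growth differentiation factor (GDF) and inhibin genes, 6 could be tested at day 2 and 8 at days 4 and 7, with 1 higher and 1 lower at day 2, 3 and 3 at day 4, and 2 and 2 at day 7. Of all genes tested, 24.1% were higher and 22.2% lower at day 2, 27.5% higher and 25.2% lower at day 4, and 28.4% higher and 26.6% lower at day 7, which is the background for each list. The list medians were 0.07, -0.19 and 0.17 on the log2 scale. Gdf6, a BMP-type ligand of joint and skeletal development, was the most strongly raised at days 2 and 7, with 6.14 ± 2.46 CPM after MI against 1.016 ± 0.277 CPM after sham surgery at day 2, 21.4 ± 7.37 CPM after MI against 2.63 ± 1.05 CPM after sham surgery at day 4 and 33.3 ± 8.66 CPM after MI against 2.08 ± 0.649 CPM after sham surgery at day 7 (SD, n = 5 each). The log2 values were 2.47, 2.84 and 3.81 (edgeR adjusted p = 9.69e-06, 3.73e-06 and 3.65e-07). Gdf3 could be tested at day 4 only and was higher (3.12 ± 0.43 SE, edgeR adjusted p = 2.67e-05). Bmp7 was lower at all 3 days (-1.55, -1.11 and -1.35, edgeR adjusted p = 0.000273, 0.00205 and 0.0114). Its day 7 call was lost without the lung libraries, at -1.58 ± 0.65 SE (edgeR adjusted p = 0.0808) against -1.35 ± 0.40 SE with them. Bmp3, known as an inhibitory member of the family, was lower at day 4 (-2.07 ± 0.43 SE, edgeR adjusted p = 0.00102) and day 7 (-1.57 ± 0.45 SE, edgeR adjusted p = 0.00914).

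Of 14 receptor and co-receptor genes, 0 were higher and 5 lower of 11 tested at day 2, 2 and 4 of 11 at day 4, and 2 and 3 of 12 at day 7, with medians of -0.24, -0.19 and -0.13. Of all genes tested, 22.2, 25.2 and 26.6% were lower at the 3 days. The BMP co-receptor genes Hjv and Rgma fell at each day. Hjv averaged 232 ± 42.4 CPM after MI against 439.9 ± 39.1 CPM after sham surgery at day 7 (SD, n = 5 each; -1.11 ± 0.13 SE, edgeR adjusted p = 1.65e-05), and Rgma 32.4 ± 6.69 CPM after MI against 46.5 ± 6.42 CPM after sham surgery (-0.72 ± 0.15 SE, edgeR adjusted p = 0.000973). Acvr2a, a type II receptor gene for activins, also fell at each day, by 0.38, 0.45 and 0.55 on the log2 scale (edgeR adjusted p = 0.004, 0.00243 and 0.000999). Acvrl1, the gene of the endothelial type I receptor ALK1, rose at days 4 and 7 (0.40 and 0.57; edgeR adjusted p = 0.00342 and 0.00049), while its day 2 value was 0.03. Cardiomyocyte transcripts moved the same way as the genes that fell: the 5 marker genes summed to 26242 to 32652 CPM after MI and 40002 to 49331 CPM after sham surgery at day 7, and 3, 5 and 5 of them were called lower at days 2, 4 and 7. The part of this in the receptor results was not tested.

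All 6 SMAD genes that receive or share the signal could be tested, with 2 higher and 1 lower at day 2 and 1 higher at each later day, where 24.1, 27.5 and 28.4% of all genes tested were higher at days 2, 4 and 7. Their medians were -0.13, 0.07 and 0.01. Smad1, of the BMP branch, was the gene higher at every day, with 33.4 ± 3.66 CPM after MI against 16.7 ± 2.85 CPM after sham surgery at day 7 (SD, n = 5 each). On the log2 scale it differed by 0.51, 0.63 and 0.81 (edgeR adjusted p = 0.000542, 0.000126 and 6.77e-05). Smad3, of the activin branch, was lower at day 2 (-0.34 ± 0.10 SE, edgeR adjusted p = 0.0139). Smad2 was higher at day 2 (0.21 ± 0.07 SE, edgeR adjusted p = 0.0315), a call lost without any 1 of MI replicates 1, 2 and 5 or sham replicates 1, 3, 4 and 5 (0.17 to 0.21, edgeR adjusted p = 0.0502 to 0.0957).

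Of 8 BMP-SMAD target genes, 1 was higher and 1 lower of 7 tested at day 2, and 4 of 8 were higher at both later days, with medians of 0.01, 0.20 and 0.26. The shares of all genes tested that were higher were 24.1, 27.5 and 28.4% at the 3 days. The 4 were Id2, Id3, Atoh8 and Smad7. Id1 did not rise: its values were -0.29, -0.21 and -0.20 at days 2, 4 and 7, and none was called. Smad6 was the gene lower at day 2 (-0.35 ± 0.11 SE, edgeR adjusted p = 0.0131) and was not called later. Bambi was not called at any day, nor was Id4 at days 4 and 7. Id3, an inhibitor of basic helix-loop-helix factors, averaged 66.7 ± 9.59 CPM after MI against 64.9 ± 6.54 CPM after sham surgery at day 2, 96.5 ± 12.9 CPM after MI against 52.5 ± 5.68 CPM after sham surgery at day 4 and 139 ± 12.7 CPM after MI against 57.0 ± 11.9 CPM after sham surgery at day 7 (SD, n = 5 each). Its log2 fold change was 0.70 ± 0.10 SE (edgeR adjusted p = 4.04e-05) at day 4 and 1.10 ± 0.12 SE (edgeR adjusted p = 1.28e-05) at day 7. Atoh8 gave 0.59 and 0.87 at these days (edgeR adjusted p = 0.00165 and 0.0002). Id2 was higher at all 3 days (0.58, 0.75 and 0.58; edgeR adjusted p = 0.0066, 0.00131 and 0.00746). Smad7, which encodes an inhibitory SMAD, was higher at day 4 (0.35 ± 0.11 SE, edgeR adjusted p = 0.0183) and day 7 (0.38 ± 0.10 SE, edgeR adjusted p = 0.00562). The Smad7 calls were lost without the lung libraries (0.26 at day 4 and 0.23 at day 7, edgeR adjusted p = 0.116 and 0.237), and at day 4 also without MI replicate 1 (0.29, edgeR adjusted p = 0.0558) or sham replicate 4 (0.30, edgeR adjusted p = 0.0540). Without MI day 2 replicate 2 the day 2 value of Smad7 was called (0.34, edgeR adjusted p = 0.0102).

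Of 15 antagonist genes outside the follistatin family, 0 were higher and 3 lower of 8 tested at day 2, 1 and 4 of 8 at day 4, and 3 and 2 of 9 at day 7, with medians of -0.34, -0.33 and 0.22. Over all genes tested 24.1, 27.5 and 28.4% were higher and 22.2, 25.2 and 26.6% lower. Bmper, which encodes a BMP-binding endothelial regulator, rose to 29.0 ± 8.47 CPM after MI against 8.16 ± 2.85 CPM after sham surgery at day 7 (SD, n = 5 each), with log2 fold changes of 0.92 ± 0.13 SE (edgeR adjusted p = 4.45e-05) at day 4 and 1.64 ± 0.24 SE (edgeR adjusted p = 8.07e-05) at day 7. Its day 2 value of 0.29 was not called, except without sham replicate 2 (0.54, edgeR adjusted p = 0.0442). Wfikkn2, a binder of myostatin and GDF11, fell at each day (-0.94, -0.63 and -0.43; edgeR adjusted p = 4.47e-05, 0.00295 and 0.0133). Chrd, the gene of the BMP binder chordin, was higher at day 7 (0.76 ± 0.21 SE, edgeR adjusted p = 0.00885). It was not called without the lung libraries, where the value was alike and its SE larger (0.78 ± 0.31 SE, edgeR adjusted p = 0.076). Chrdl1 was lower at day 4 (-1.20 ± 0.41 SE, edgeR adjusted p = 0.0239), a call lost without MI replicate 1 (-1.14, edgeR adjusted p = 0.0564), without sham replicate 3 (-0.74, edgeR adjusted p = 0.0618) or without the lung libraries (-0.54, edgeR adjusted p = 0.205). Its day 2 value was called only without sham replicate 5 (-0.59, edgeR adjusted p = 0.0265).

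The muscle ubiquitin ligase genes Fbxo32 (atrogin-1) and Trim63 (MuRF1), known to rise in skeletal muscle under activin and myostatin, were both lower in MI hearts at all 3 days. Trim63 averaged 149 ± 10.8 CPM after MI against 242 ± 24.6 CPM after sham surgery at day 4 (SD, n = 5 each), and differed by -0.40, -0.88 and -0.89 on the log2 scale at the 3 days (edgeR adjusted p = 0.0055, 3.73e-06 and 0.000101). Fbxo32 gave -0.67, -0.85 and -0.68 (edgeR adjusted p = 0.00275, 0.000309 and 0.00506). Both are genes of muscle cells, and the cardiomyocyte sums above were also lower in MI hearts. Of the marker genes in these sums, Myh6, Pln and Ryr2 were called lower at day 2 (-1.50, -0.87 and -0.80 on the log2 scale). Tnnt2 (0.12) and Actc1 (-0.16) were not called at that day. The part of cardiomyocyte RNA in the Fbxo32 and Trim63 results was not tested.

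**Figure D5:**
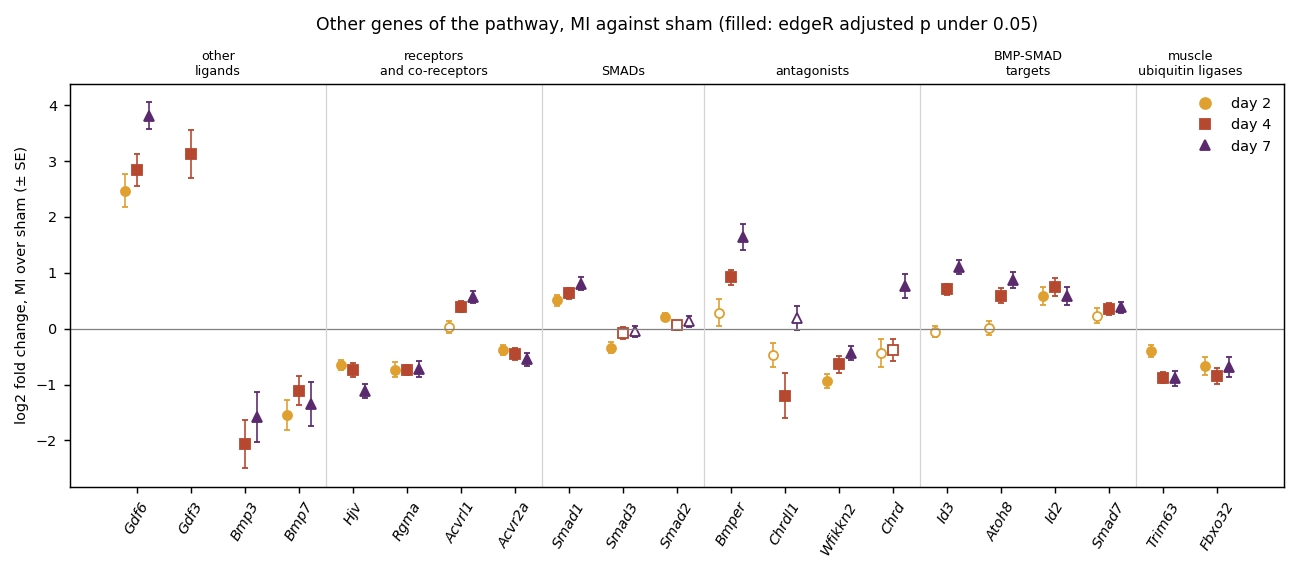
Log2 fold change of MI over sham (± SE) at days 2, 4 and 7 for up to 4 genes of each pathway list, with filled symbols where the edgeR adjusted p was under 0.05 and no symbol where a gene could not be tested. Gdf6 has the highest values at days 2 and 7 (2.47 and 3.81), Hjv, Rgma, Acvr2a, Trim63 and Fbxo32 lie below 0 at each day, and Id3 and Atoh8 are near 0 at day 2 (-0.06 and 0.01) and above it later.

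The genes of most alike pattern were sought among 14615 genes that averaged 1 CPM or more, by the root mean square difference (in log2 units) between profiles of the 6 group means of log2(CPM + 1), each centred on its own mean. The measure ranks 6 points that share libraries and carries no test. For Inhba the closest were Plac8 (0.160), Cd300a (0.195), a receptor gene of myeloid cells, and Glipr1 (0.199). For Inhbb they were Rin1 (0.121), F10 (0.130), which encodes coagulation factor X, and Itgam (0.160), the CD11b integrin gene of myeloid cells. Bmp2 was closest to Plin2 (0.102), a coat protein gene of lipid droplets, Dok2 (0.110) and Ppan (0.140). Bmp4 had a very near match in Dzip1l (0.0299), followed by Rab23 (0.0657), a small GTPase gene, and Dlg5 (0.0669). For Bmp6, whose group means ran from 22.8 to 32.5 CPM, the closest were Afdn (0.0315), Smyd3 (0.0343) and 2810021J22Rik (0.0402). For Bmp10 the closest were at a larger distance, Hamp (0.490), the hepcidin gene, Mlana (0.505) and Gm15564 (0.562). Fst was closest to Scel (0.141), Nnmt (0.146) and Gpr34 (0.153). Fstl1 was closest to Fbn1 (0.0801), the fibrillin gene of extracellular microfibrils, Cd109 (0.111) and Runx1 (0.122), a transcription factor gene. For Fstl3 they were Tnfrsf12a (0.149), the receptor gene for TWEAK, Nppb (0.184), the gene of B-type natriuretic peptide, and Tent5b (0.195).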

How the data were processed

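Heart RNA was made into directional libraries and read in pairs of 150 bases (labels' protocols). The authors deposited raw counts of reads per gene in a separate file for each library, and the submitters' processing notes name bcl2fastq 2.20.0, featureCounts and the build GRCm38. Not given in the sources used here are the aligner, the featureCounts version and the strand setting. Totals were 7841930 to 14070017 counts per library. A count of 0 allows up to 3 counts (0.213 to 0.383 CPM, depending on the library), which covers counting error only. Gene names, positions and exon lengths came from the GENCODE vM21 annotation of GRCm38, which names 42462 of the 43629 identifiers. Of the 66 pathway genes listed, Gdf1 had no identifier in the files.

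Counts were tested with edgeR 4.0.16 in R 4.3.3 (filterByExpr with a minimum count of 10 and a minimum total of 15, TMM factors, robust quasi-likelihood F test, 2-sided), on the 10 libraries of a day, or on all 30 for differences between days. p-values were adjusted by the Benjamini-Hochberg method over all genes tested. SE were taken as the log2 fold change over the square root of F. CPM are counts over the library total, and TPM were computed here from union exon lengths. The test code was tried on simulated counts with known changes before use.

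All 10 genes are named at each day. Of each pathway list up to 4 called genes averaging 1 CPM or more are named, by largest change, and for each of the 10 genes that averages 1 CPM or more the 3 genes of most alike pattern. The 10 genes, the pathway and marker lists and the alternatives were chosen with earlier results of these data known, among them the lung and skeletal muscle transcripts in some libraries. Markers of adipocytes, endothelium and mesothelium were also summed: at day 7 they gave 93.8 to 481, 746 to 1044 and 63.9 to 179.7 CPM in MI and 82.5 to 473, 789 to 983 and 41.1 to 145 CPM in sham libraries. Alternatives were median-ratio factors, DESeq2 1.42.0, other filters on low counts, the replicate number as a block, all 30 libraries in 1 fit, each library left out singly, and fits without the libraries that held lung (Sftpc plus Scgb1a1 at 50 CPM or more) or skeletal muscle transcripts. Promoters are RefSeq sequences on GRCm38.p6. Figures were drawn with matplotlib 3.10.9.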

Additional observations from a re-analysis of the deposited data

Results flagged for a closer look

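A library was set apart when its gap to the nearest other library of its group exceeded Dixon's 95% limit for 5 values, which chance alone passes in about 1 of 20 groups. Of the 60 groups tested (10 genes in 6 groups), 3 were. Bmp10 measured 164.4 CPM in MI day 7 replicate 3, and the next highest library of that group had 102 CPM. Mstn measured 0 CPM in sham day 2 replicate 3, a gene with at most 18 counts in any library. Fstl1 measured 496.6 CPM in sham day 7 replicate 2, while the other 4 sham libraries of that day lay between 250 and 279 CPM. That library is 1 of the 6 with lung transcripts, as are sham day 7 replicates 1 and 3, which each had 279 CPM of Fstl1. The part of lung transcripts in this value was not tested.

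Effects that differed between days by the interaction test in edgeR were the Fstl1 effect at day 4 minus that at day 2 (0.874 on the log2 scale, adjusted p = 0.0416), and, at day 7 minus day 2, those of Inhbb (-1.003, edgeR adjusted p = 0.0239), Fst (1.197, edgeR adjusted p = 0.0368) and Fstl1 (1.796, edgeR adjusted p = 1.94e-05). The identifier that sets the day 2 libraries apart in the descriptions, whose meaning the labels do not give, cannot be told apart from the day in these differences.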

How the results depend on the processing

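Of 1230 values of the 10 genes under the alternatives, 1160 kept their direction and their side of the threshold, 40 lost a call, 27 gained one and 3 reversed. Differences between days entered this count only where the reported value was at least 1 SE from 0. Smaller differences, and Mstn at single days, were left out, so the number of reversals does not cover them. Inhba, Inhbb, Fstl1 and Fstl3 were called higher at each day under every alternative run. The numbers of genes called among the 10 at days 2, 4 and 7 stayed within 1.5 times those reported under every alternative. Leaving out 1 library gave 6 to 8 at day 2, 7 to 8 at day 4 and 6 to 7 at day 7, and for the differences 0 to 2 (day 4 minus day 2), 0 to 2 (day 7 minus day 4) and 1 to 4 (day 7 minus day 2). Over all genes these ranges were 5865 to 6727, 6825 to 7813 and 7318 to 8095 at the 3 days, and 416 to 1236, 70 to 294 and 2394 to 3509 for the differences in the same order. The count for day 4 minus day 2 moved by over 1.5 times without MI day 2 replicates 2 (1171) or 4 (416), sham day 2 replicate 2 (462), MI day 4 replicates 1 (493) or 5 (448), or sham day 4 replicates 2 (477), 3 (1236) or 4 (421). That for day 7 minus day 4 did so without MI day 4 replicates 1 (76), 2 (73) or 5 (288), sham day 4 replicates 1 (97) or 3 (70), MI day 7 replicates 2 (98), 4 (95) or 5 (294), or sham day 7 replicates 1 (99), 4 (95) or 5 (73).

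For day 4 minus day 2, DESeq2 called 2 of the 10 genes (Fstl1 and Inhbb) and 1218 of all genes, and no filter gave 0 of the 10 (edgeR; Fstl1 alone in the reported test) and 475 of all. For day 7 minus day 4, DESeq2 called 2 and 419, against 0 and 158 in edgeR, and all genes called numbered 84 with no filter, 18 without the lung libraries and 95 without MI day 7 replicate 4. The cause was not tested. Without the lung libraries 6 of the 10 genes were higher and 1 lower at day 4 (26.9% and 23.5% of all genes tested), and 6 and 0 at day 7 (20.3% and 18.0%). Without MI day 7 replicate 4 they were also 6 and 0 at day 7 (26.4% and 24.4% of all genes tested).

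Values that reversed were near 0 and not called: Atoh8 at day 2 (-0.0082 with all 30 libraries in 1 fit) and, over the fits that left out 1 library, Atoh8 at day 2 (-0.061 to 0.066), Acvrl1 at day 2 (-0.035 to 0.099), Id3 at day 2 (-0.12 to 0.011), Bmp10 at day 7 (-0.26 to 0.042) and Smad3 at day 7 (-0.083 to 0.023).

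Same-numbered MI and sham libraries did not deviate together: over 15 pairs r ran from -0.20 to 0.25, 4 exceeded 0.1, and 4 of the 15 MI libraries matched their own number best. With the replicate number as a block, Bmp4 (0.47, edgeR adjusted p = 0.0379) and Bmp10 (-0.56, edgeR adjusted p = 0.0171) were also called at day 2, Bmp6 at day 7 (-0.25, edgeR adjusted p = 0.0733) and Fst for day 7 minus day 2 (1.19, edgeR adjusted p = 0.0580) were not, and all genes called numbered 6971, 7350 and 7312 at days 2, 4 and 7.

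Depth limits Mstn most, at 0 to 18 counts.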
